A study of Mus musculus with 12 samples.

Results

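Expression of 10 genes of the p53 and BCL2 apoptosis pathway was followed across 12 RNA-seq libraries of mouse pancreatic islets and islet cells, in 4 groups of 3 libraries. The members were the rows of the deposited normalized table with the gene symbols Trp53, Mdm2, Bcl2, Bcl2l1, Mcl1, Bax, Bcl2l11, Bid, Bbc3 and Pmaip1, which made 10 of 22711 genes, and each of the 10 was found. All animals carried RIP-rtTA; TetO-VEGF-A, whereby the rat insulin promoter drives a doxycycline (Dox) dependent activator in beta cells and the activator switches on a VEGF-A transgene. The groups were macrophages sorted with an antibody to CD11b after 1 week of Dox, endothelial cells sorted with an antibody to CD31 after 1 week of Dox, whole islets after 1 week of Dox, and whole islets of mice of the same genotype without Dox. Both transgenes were thus present in every group, Dox given to other mice is not analysed here, and CD11b also occurs on other myeloid cells. Whether the 3 libraries of a group are 3 animals is not stated by the labels. The p-values therefore reflect the spread between these samples, part of which may be technical.

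The p53 protein, encoded by Trp53, is a transcription factor that is held low by the ubiquitin ligase MDM2, itself a p53 target, and its activity is set mainly by protein stability rather than by mRNA. Proteins of the BCL2 family meet at the mitochondrial outer membrane, where BCL2, BCL-XL (Bcl2l1) and MCL1 block the pore-forming protein BAX, and the BH3-only proteins BIM (Bcl2l11), BID, PUMA (Bbc3) and NOXA (Pmaip1) relieve that block or act on BAX. MDM2, BAX, PUMA and NOXA are well known products of p53 target genes. In islets this family is known for its part in the loss of beta cells under stress, and in macrophages MCL1 is known as a survival factor.

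Promoter windows of 250 bases ending just before a RefSeq transcription start (build GRCm38.p6) were taken for 9 members, in 14 windows. They were searched on both strands for the p53 half-site consensus, which matched in 1 window each of 3 members, Trp53, Mdm2 and Bax, and in 7.1% of 32851 such windows of all genes. These 3 windows are shown because they are the ones that hold a match. They are printed 5′ to 3′ on the gene's own strand, with the match in capitals, and a match here is a description of letters and not of binding. They are Trp53 at chr11:69580109-69580358 on the plus strand, Mdm2 at chr10:117710759-117711008 on the minus strand and Bax at chr7:45466899-45467148 on the minus strand.
Trp53: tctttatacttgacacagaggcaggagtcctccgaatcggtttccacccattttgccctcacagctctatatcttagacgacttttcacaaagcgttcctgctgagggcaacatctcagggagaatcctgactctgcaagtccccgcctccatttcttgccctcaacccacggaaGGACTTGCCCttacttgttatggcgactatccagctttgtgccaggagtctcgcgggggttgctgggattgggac
Mdm2: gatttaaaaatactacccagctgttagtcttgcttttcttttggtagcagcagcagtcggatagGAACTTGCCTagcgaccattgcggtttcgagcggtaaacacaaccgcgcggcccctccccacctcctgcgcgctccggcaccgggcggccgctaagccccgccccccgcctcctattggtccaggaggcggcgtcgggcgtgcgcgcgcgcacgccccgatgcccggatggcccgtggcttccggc
Bax: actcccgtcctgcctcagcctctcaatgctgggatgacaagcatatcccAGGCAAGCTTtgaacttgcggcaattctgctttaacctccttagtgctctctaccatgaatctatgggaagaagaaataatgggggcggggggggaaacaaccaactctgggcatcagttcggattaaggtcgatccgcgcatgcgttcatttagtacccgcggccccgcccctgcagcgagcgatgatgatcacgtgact
The matches began at position -75 of Trp53, -186 of Mdm2 and -201 of Bax, counted from the start site. The windows of Bcl2, Bcl2l1, Mcl1, Bcl2l11, Bid and Bbc3 held no match to these letters. Pmaip1 was left out of the search, so whether its promoter holds a match is not known here.

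The values were the authors' normalized signal, a linear scale with a floor of 1, and summed to between 17635776 and 25226447 per library. Read numbers were not established here, which leaves the values without a counting interval. The cell type labels were set against marker genes. In sorted macrophages the 9 macrophage markers in the table took 0.773 to 0.859% of summed signal and the 9 endothelial markers 0.00701 to 0.00976%, while in sorted endothelial cells these markers took 0.000687 to 0.0017% and 1.06 to 1.13%. None of the 9 endothelial markers was at the floor in all 3 macrophage libraries, nor was any macrophage marker in all 3 endothelial libraries. Neutrophil markers took 0.0147 to 0.0191% in sorted macrophages, beta cell markers 0.013 to 0.0306%, and acinar markers ranged there from 0.0061 to 1.68%. Sorted endothelial cells also held signal of other cells. Pericyte and smooth muscle markers took 0.0716 to 0.279% there and acinar markers 0.00122 to 0.486%. Among islet libraries, Dox replicate 1 and No Dox replicate 2 stood apart. Their deviation from their own group mean increased with gene GC content (Spearman's rho over genes 0.58 and 0.65), against rho of -0.30 to -0.47 in the other 4. Deviations within a group are not independent, so a rise in 1 library lowers the others. For replicates 1, 2 and 3, rho was 0.27, -0.21 and -0.02 in macrophages and 0.37, -0.29 and -0.12 in endothelial cells. Library identifiers in the table's header fall into 3 runs of numbers, and within-run differences are given below where they bear on a result.

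Sorted macrophages had the highest mean of the 4 groups for 8 of the 10 genes, and sorted endothelial cells for the other 2, Trp53 and Bcl2. Of 15095 genes with detectable signal, 31.3% were highest in macrophages and 25.6% in endothelial cells. No Dox islets had the lowest mean for 7 of the 10, a count for which no share over all genes is given here. To set different genes side by side, signal was divided by exon length, though whether the deposited values were already scaled for length is unknown. By this measure Mcl1 led in every group. Its signal per kb was 9602 ± 1391 in macrophages and 5497 ± 721 in endothelial cells. In Dox islets it was 5733 ± 2152 and in No Dox islets 3007 ± 887 (SD, n = 3 each). Pmaip1 came next in macrophages with 3757 ± 431 per kb, whereas in the other groups Mdm2 was next, with 669 ± 37.9 in endothelial cells, 690.4 ± 101 in Dox islets and 753 ± 255 in No Dox islets. Bbc3 and Bid were among the 3 lowest in every group, with 16.9 to 87.7 per kb. The RNA was amplified before library preparation, and its effect on levels per length was not tested.

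**Figure D1:**
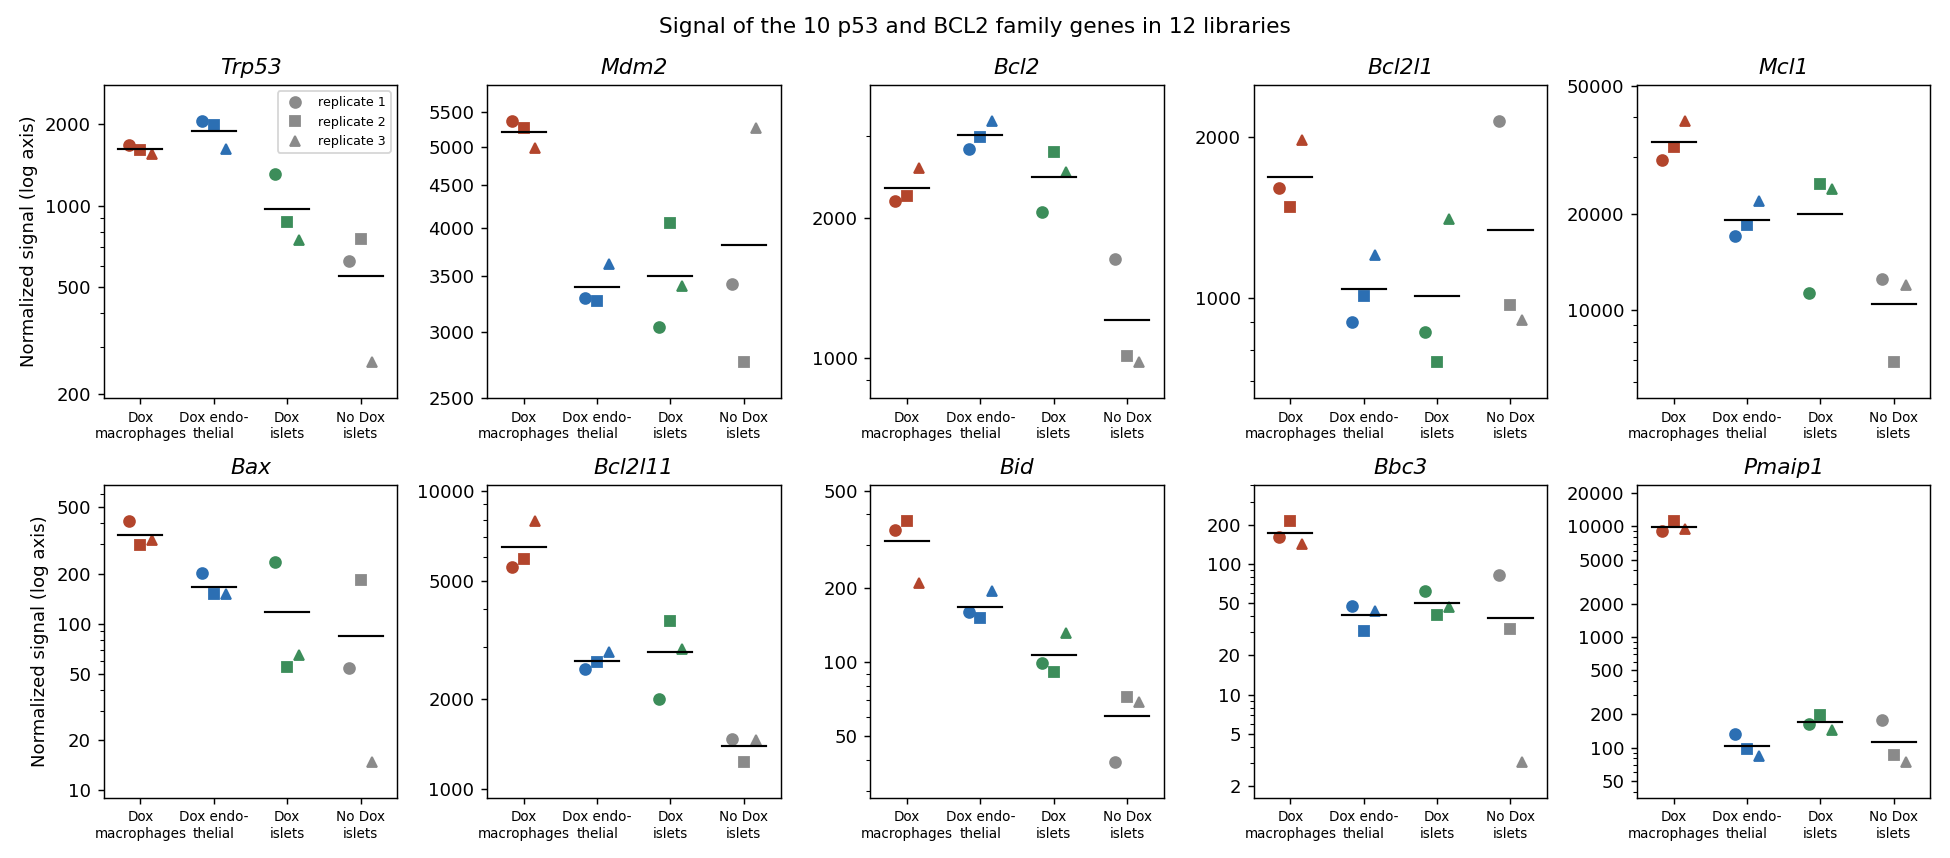
Normalized signal (log axis, a separate scale for each gene) of the 10 genes in the 12 libraries, one point per library with its replicate number as the marker shape and the group mean as a line. Pmaip1 stands at 9094 to 11239.6 in the 3 macrophage libraries and at or below 198 in the other 9, while most other genes span a much narrower range.

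Trp53 was higher in both sorted fractions than in whole islets. Its signal was 1673, 1615 and 1561 in macrophages, 2059, 1999 and 1616 in endothelial cells, 1315, 866 and 746 in Dox islets and 626, 752 and 264 in No Dox islets. The 2 sorted fractions overlapped each other and lay above all 6 islet libraries, which themselves overlapped between Dox and No Dox. The gene (ENSMUSG00000059552) lies on chromosome 11 from 69393861 to 69405375 of build mm9, plus strand. In limma's moderated test it was higher in endothelial cells than in Dox islets by 0.99 on the log2 scale of signal + 1 (SE 0.24, adjusted p = 0.0166) and in macrophages than in Dox islets by 0.77 (SE 0.25, adjusted p = 0.0271). The difference between macrophages and endothelial cells was -0.22 (95% CI -0.51 to 0.07, adjusted p = 0.156), and that between Dox and No Dox islets was 0.92 (95% CI -0.08 to 1.93, adjusted p = 0.249). The first depended on the processing, since it was -0.43 (adjusted p = 0.00812), past the threshold, with the GC trend of each library removed and -0.30 (adjusted p = 0.0379) with the identifier run as a covariate, an alternative added after seeing the data. Each of the 2 calls against Dox islets was kept under 8 of 15 alternatives, so they are the less firm part of this result. For endothelial cells it was lost without endothelial replicate 1 or 2 or Dox islet replicate 2 or 3 (adjusted p 0.0502 to 0.0759), and for macrophages without any 1 macrophage library or Dox islet replicate 2 or 3 (0.0523 to 0.104).

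Mdm2, which encodes the ligase that degrades p53, was higher in macrophages than in endothelial cells or Dox islets. The 3 macrophage libraries read 5368, 5269 and 4988, endothelial cells 3292, 3270.5 and 3614, Dox islets 3041, 4051 and 3409, and No Dox islets 3426, 2761 and 5259.8. Macrophages lay above every endothelial and Dox islet library, and No Dox replicate 3 reached the macrophage range. The log2 difference was 0.62 against endothelial cells (SE 0.09, adjusted p = 0.000369), kept under 15 of 15 alternatives, and 0.58 against Dox islets (SE 0.18, adjusted p = 0.0240), kept under 12 of 15 and lost without macrophage replicate 1 or 2 or Dox islet replicate 3 (adjusted p 0.0714 to 0.102). With the GC trend removed the difference against Dox islets was 1.199. Between Dox and No Dox islets it was -0.08 (95% CI -0.80 to 0.63, adjusted p = 0.923). The Mdm2 gene (ENSMUSG00000020184) lies on chromosome 10 from 117125944 to 117147814, minus strand.

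Among the 3 pro-survival genes, Bcl2 differed from Mcl1 and Bcl2l1 in which sorted fraction was higher. Bcl2 read 2185, 2231 and 2562 in macrophages, 2823, 2989 and 3237 in endothelial cells, 2063, 2779 and 2521 in Dox islets, and 1636, 1013 and 983 in No Dox islets. All endothelial libraries lay above all macrophage and islet libraries, and No Dox islets lay below every other library. In macrophages Bcl2 was lower than in endothelial cells by a log2 difference of -0.38 (SE 0.11, adjusted p = 0.0150), which 11 of 15 alternatives kept. It was lost without macrophage replicate 1 (adjusted p = 0.0530) or endothelial replicate 3 (0.0617). Bcl2 (ENSMUSG00000057329) lies on chromosome 1 from 108434755 to 108610851, minus strand, and shares 558 bp of exon with the antisense transcript D630008O14Rik, whose reads may be part of its signal. Mcl1 read 29374, 32193 and 38819 in macrophages, 17044, 18490.2 and 21934 in endothelial cells, 11335, 24785 and 23815 in Dox islets, and 12498, 6919.6 and 12023 in No Dox islets. Macrophages lay above all other libraries, and Dox islet replicate 1 fell among the No Dox islets. The log2 difference of Mcl1 was 0.80 between macrophages and endothelial cells (SE 0.14, adjusted p = 0.00114). Against Dox islets it was 0.82 (SE 0.33, adjusted p = 0.0597), which did not pass the threshold of 0.05 although all macrophage libraries lay above all Dox islet libraries, as in 28.1% of genes, and it passed under 7 of 15 alternatives, among them the fits without Dox islet replicate 1 (0.0344) and without Dox islet replicate 2 (0.0386). Mcl1 (ENSMUSG00000038612) lies on chromosome 3 from 95462643 to 95467099, plus strand. Bcl2l1, whose main product is BCL-XL, read 1608, 1476 and 1969 in macrophages, 901, 1007 and 1204 in endothelial cells, 865, 759 and 1405 in Dox islets, and 2140.4, 970.3 and 908 in No Dox islets. No Dox replicate 1 was the highest of all 12 libraries. Bcl2l1 was higher in macrophages than in endothelial cells by 0.70 (SE 0.16, adjusted p = 0.00542) and than in Dox islets by 0.78 (SE 0.27, adjusted p = 0.0367), of which the second held under 7 of 15 alternatives. It was lost without any 1 macrophage library or without Dox islet replicate 1 or 2 (adjusted p 0.0578 to 0.112). Bcl2l1 (ENSMUSG00000007659) lies on chromosome 2 from 152593052 to 152657464, minus strand.

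Bax, the pore-forming effector, had its highest signal in macrophages, with 414, 296 and 318, against 200.4, 151 and 150.0 in endothelial cells. Dox islets read 235, 54.7 and 64.8 and No Dox islets 54.3, 182 and 14.9, so that 1 library in each islet group stood well above the others. Those 2 libraries, Dox replicate 1 and No Dox replicate 2, are the pair whose deviation from their group mean increased with GC content. Bax exons hold 62.6% GC, and the part of GC in these values was not tested. Bax was higher in macrophages than in endothelial cells by 1.03 on the log2 scale (SE 0.25, adjusted p = 0.00668). It was also higher than in Dox islets, by 1.84 (SE 0.57, adjusted p = 0.0224), a call lost without macrophage replicate 1 or Dox islet replicate 2 or 3 (0.0746 to 0.0803). Bax (ENSMUSG00000003873) lies on chromosome 7 from 52717065 to 52722268, minus strand.

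The 4 BH3-only genes were all highest in macrophages, and Pmaip1, which encodes NOXA, stood far from the rest. Its signal was 9094, 11239.6 and 9492 in macrophages, 132, 97.7 and 84.4 in endothelial cells, 165, 198 and 146 in Dox islets, and 178, 86.8 and 74.8 in No Dox islets. The lowest macrophage library lay far above the highest of the other 9, and the islet and endothelial libraries overlapped. The log2 difference of Pmaip1 was 6.58 between macrophages and endothelial cells (SE 0.19, adjusted p = 5.96e-08), where the ratio of means was 95.03. Against Dox islets it was 5.87 (SE 0.21, adjusted p = 8.54e-07), with a ratio of means of 58.6, and both calls held under 15 of 15 alternatives. Within the first identifier run the same differences were 6.47 and 5.93. Pmaip1 (ENSMUSG00000024521) lies on chromosome 18 from 66618258 to 66625204, plus strand. Neutrophil and acinar markers were also present in sorted macrophages, as given above, acinar ones unevenly, and their part in the Pmaip1 signal was not tested.

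Bcl2l11 (ENSMUSG00000027381, chromosome 2 from 127951774 to 127988283, plus strand), which encodes BIM, read 5568, 5911 and 7930.4 in macrophages, 2529, 2658 and 2886 in endothelial cells, 2003, 3646 and 2952 in Dox islets, and 1472, 1233 and 1462 in No Dox islets. Macrophages lay above and No Dox islets below all other libraries, with endothelial cells and Dox islets overlapping between them. It was higher in macrophages by 1.25 against endothelial cells (SE 0.14, adjusted p = 0.000102) and by 1.199 against Dox islets (SE 0.26, adjusted p = 0.00376), each under 15 of 15 alternatives. Bid (ENSMUSG00000004446, chromosome 6 from 120841948 to 120866871, minus strand), whose product is cleaved by caspase-8, read 347, 377 and 210.3 in macrophages, 159.7, 152 and 194 in endothelial cells, 99.1, 90.9 and 131 in Dox islets, and 39.4, 72.4 and 68.7 in No Dox islets. No 2 of these groups overlapped. It was higher in macrophages by 0.84 against endothelial cells (SE 0.29, adjusted p = 0.0317, kept under 9 of 15 alternatives) and by 1.504 against Dox islets (SE 0.40, adjusted p = 0.0107, 13 of 15). The first call was lost without macrophage replicate 1 or 2 or endothelial replicate 1 or 2 (0.0859 to 0.104), and the second without macrophage replicate 1 or 2 (0.0534 and 0.0552). Bid shares 628 bp of exon with Bcl2l13 on the opposite strand, and as the authors' use of strand is not given in the sources used here, its values are uncertain. Bbc3 (ENSMUSG00000002083, chromosome 7 from 16894965 to 16903554, plus strand), which encodes PUMA, was low throughout, with 162, 214 and 142 in macrophages, 47.7, 30.6 and 43.7 in endothelial cells, 62.8, 40.5 and 47.3 in Dox islets, and 81.8, 32.1 and 3.08 in No Dox islets. All macrophage libraries exceeded all others.

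Counted over the family, macrophages differed from endothelial cells in 8 of the 9 members tested, 7 higher and Bcl2 lower, where 65.4% of 10145 genes passed the same test in either direction and 29.4% were higher. The members' median log2 difference was 0.80, against -0.14 over all genes tested. Against Dox islets, macrophages were higher in 7 of 9 members and lower in 0, with Bcl2 and Mcl1 not past the threshold, where 56.0% of 10687 genes passed and 24.7% were higher. The medians were 0.82 for the members and -0.12 for all genes. Bax, Bid and Pmaip1 entered these 2 tests through the macrophage libraries, since at most 1 library of the other group reached the filter for low values, so these counts describe a selected set. Bbc3 did not reach that filter. With a lower filter, added after the values were seen, all 10 members were tested. Bbc3 was then higher in macrophages than in endothelial cells by 2.06 (SE 0.34, adjusted p = 0.00105) and than in Dox islets by 1.77 (SE 0.45, adjusted p = 0.00927). Both calls were lost with all 4 groups fitted together (adjusted p = 0.0578 and 0.0898), and the second also without macrophage replicate 2 (0.0502). The counts with the lower filter were 9 of 10 members, where 59.1% of genes passed, and 8 of 10, where 52.7% passed. In the first identifier run, which holds 2 macrophage and 2 endothelial libraries, all 10 differences had the sign of the whole comparison. Members whose groups do not overlap keep their sign in any part of these libraries, so this is not separate support. When all 4 groups shared 1 estimate of the spread, 3 of 9 members still separated macrophages from endothelial cells, namely Mdm2, Bcl2l11 and Pmaip1. Without macrophage replicate 1, macrophage replicate 2 or Dox islet replicate 3, the count against Dox islets was 2, 3 and 4.

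Between endothelial cells and Dox islets few members were called. Of 6 members tested, Trp53 alone passed, where 31.5% of 10187 genes did, and it passed in none of the fits without endothelial replicate 1 or 2 or Dox islet replicate 2 or 3. With the GC trend of each library removed, 3 of 6 passed, Trp53, Mdm2 (0.53) and Bcl2 (0.87). The members' median log2 difference was 0.05, against 0.08 over all genes. The intervals show how far the remaining genes could differ. For Bcl2 the difference was 0.31 (95% CI -0.09 to 0.70), and all endothelial libraries lay above all Dox islet libraries, as in 25.6% of genes. For Mcl1 it was 0.02 (95% CI -0.70 to 0.73), for Bcl2l11 -0.05 (95% CI -0.58 to 0.48), for Bcl2l1 0.08 (95% CI -0.53 to 0.69) and for Mdm2 -0.04 (95% CI -0.42 to 0.35). With the lower filter, Pmaip1 stood at -0.71 (95% CI -1.45 to 0.04), Bid at 0.66 (95% CI -0.06 to 1.38), Bax at 0.80 (95% CI -0.45 to 2.06) and Bbc3 at -0.30 (95% CI -1.22 to 0.63), and Trp53 was the 1 call among 10 members, where 33.1% of genes passed. Other settings called more of the members. With the lower filter and the GC trend removed, Bid was higher in endothelial cells than in Dox islets by 1.18 (adjusted p = 0.00661) and Bax by 0.84 (adjusted p = 0.0438). Bid also passed with quantile normalization (1.43, adjusted p = 0.0147), and Bax without Dox islet replicate 1 (1.46, adjusted p = 0.00549). Mcl1 passed with the identifier run as a covariate (0.65, adjusted p = 0.0395).

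Setting Dox islets beside No Dox islets asks how the tissue differs after 1 week of Dox, which switches on VEGF-A in these mice. An effect of Dox itself cannot be told apart from one of VEGF-A here. None of the members passed: 0 of 6 tested were called by limma, where 8.48% of 10214 genes were. An unadjusted p under 0.05 was seen in 2 of the 6, and in 2435 of the 10214 genes. The members' median log2 difference was 0.91, against 0.11 over all genes tested. With the lower filter 0 of 10 were called, where 5.74% of genes were. The 2 genes nearest to the threshold were Bcl2 and Bcl2l11, a pro-survival and a pro-death member. Bcl2 averaged 2454 ± 363 in Dox islets and 1211 ± 369 in No Dox islets (SD, n = 3 each), a log2 difference of 1.05 (SE 0.31, adjusted p = 0.0681). Bcl2l11 averaged 2867 ± 825 in Dox islets and 1389 ± 135 in No Dox islets (SD, n = 3 each), a difference of 1.01 (SE 0.31, adjusted p = 0.0738). In both genes the 3 Dox islet libraries lay above all 3 No Dox islet libraries, as in 17.3% of genes tested. Bcl2 passed under 3 of 17 alternatives, 1 of them without No Dox replicate 1 (0.0470), and Bcl2l11 under 2 of 17, among them removal of each library's GC trend (adjusted p = 0.0361 and 0.0380) and a fit of all 4 groups together (0.00790 and 0.0124). Mcl1 stood at 0.90 (95% CI -0.03 to 1.82) and Bcl2l1 at -0.34 (95% CI -1.27 to 0.58). With the lower filter, Bax stood at 0.81 (95% CI -1.24 to 2.85), Bid at 0.85 (95% CI -0.32 to 2.03), Bbc3 at 1.17 (95% CI -1.11 to 3.45) and Pmaip1 at 0.68 (95% CI -0.44 to 1.79).

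The islet differences were uneven between the runs of identifier numbers, and no label says what these runs mark. The first holds Dox replicate 1 and the third No Dox replicate 2, the 2 islet libraries whose GC trend stood apart. Run, GC trend and single libraries cannot be told apart in these values. In the first identifier run, with 1 Dox and 1 No Dox islet library, Bcl2 differed by 0.33, Bcl2l11 by 0.44, Mcl1 by -0.14 and Bcl2l1 by -1.31. In the third run, with 2 of each, Bcl2 differed by 1.41, Bcl2l11 by 1.29, Mcl1 by 1.41 and Bcl2l1 by 0.14. Cell type markers also moved with Dox, where 635 of all 10214 genes tested were higher and 231 lower. Endothelial markers took 0.368 to 0.49% of summed signal in Dox islets and 0.154 to 0.192% in No Dox islets, with 6 of 8 tested higher. Macrophage markers took 0.04 to 0.0488% in Dox islets and 0.0128 to 0.0181% in No Dox islets, with 5 of 7 higher. Beta cell markers took 0.837 to 0.902% in Dox islets and 1.83 to 3.02% in No Dox islets, with 6 of 10 lower. Mitotic genes took 0.0525 to 0.123% in Dox islets and 0.00435 to 0.0219% in No Dox islets, with 5 of 6 higher. Of these, Ccnb1, Cdk1 and Bub1 reached the filter for low values in 3 of 3 Dox libraries but 0 of 3 No Dox libraries. The macrophage marker Fcgr3 did the same, so the macrophage and mitotic counts describe in part a selected set. Pericyte and smooth muscle markers took 1.02 to 1.67% in Dox islets and 0.27 to 0.568% in No Dox islets, with 4 of 6 higher, and fibroblast markers 0.266 to 0.496% in Dox islets and 0.0865 to 0.178% in No Dox islets, with 3 of 5 higher. Acinar markers took 0.374 to 1.2% in Dox islets and 0.152 to 0.589% in No Dox islets. Of 8 tested in limma, 0 passed the threshold and 5 had an unadjusted p under 0.05, as did 2435 of the 10214 genes. The part of these marker sets in the values of Bcl2 and Bcl2l11 was not tested. In whole islets a change in the share of a cell type and a change in RNA per cell cannot be told apart.

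**Figure D2:**
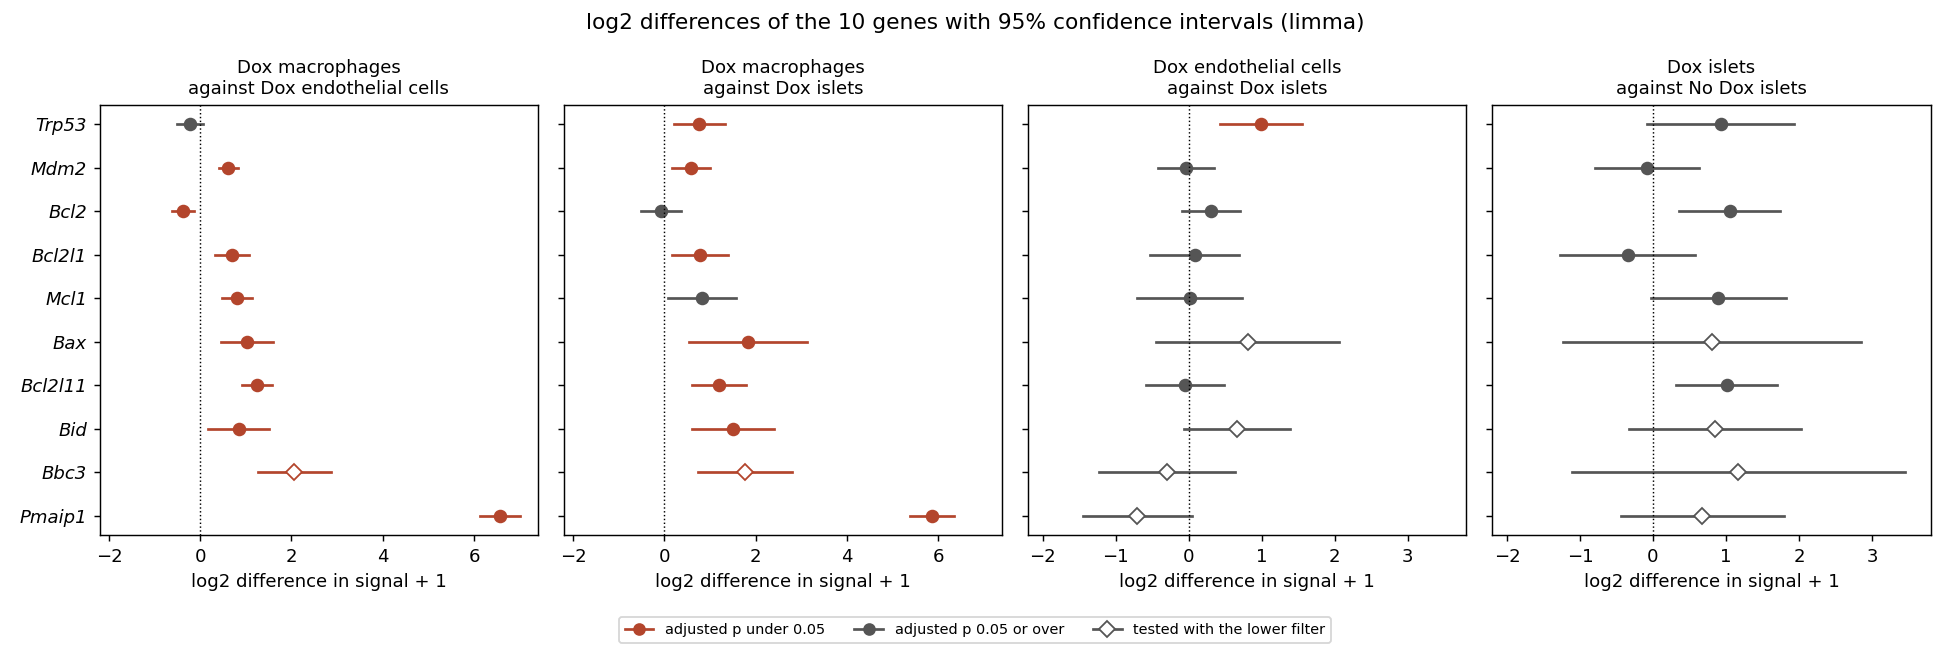
Log2 differences of the 10 genes (x axis, signal + 1) in the 4 comparisons, each with its 95% confidence interval from limma; red marks an adjusted p under 0.05 and open diamonds mark genes tested only with the lower filter. Pmaip1 lies at 6.58 and 5.87 in the 2 macrophage comparisons (left panels, with a wider x range), Trp53 is the only red mark between endothelial cells and Dox islets, and no gene is red between Dox and No Dox islets.

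Ratios between members within a library do not move with library scaling, save for the added 1. With 3 libraries against 3, an exact permutation test cannot go below p = 0.1, and 16 such tests were run, so that no ratio could pass. The log2 ratio of Bcl2l1 over Bcl2 was -1.25, -1.87 and -0.84 in Dox islets, against 0.39, -0.06 and -0.11 in No Dox islets. All 3 Dox libraries lay below all 3 No Dox libraries, a difference of -1.39 (two-sided exact permutation p = 0.1, Benjamini-Hochberg adjusted 0.178) that ran from -1.63 to -1.12 when single libraries were left out. Ratios to Bcl2 were higher in macrophages than in endothelial cells. The log2 ratio of Mcl1 over Bcl2 was 3.75, 3.85 and 3.92 in macrophages and 2.59, 2.63 and 2.76 in endothelial cells, a difference of 1.18, and that of Bcl2l1 over Bcl2 was -0.44, -0.60 and -0.38 in macrophages and -1.65, -1.57 and -1.43 in endothelial cells, a difference of 1.08. The log2 ratio of Bax over Bcl2 was -2.40, -2.91 and -3.005 in macrophages and -3.81, -4.30 and -4.42 in endothelial cells, a difference of 1.41. The log2 ratio of Mdm2 over Trp53, the inhibitor over its target, was 1.68, 1.71 and 1.67 in macrophages and 0.68, 0.71 and 1.16 in endothelial cells, a difference of 0.84. None of these 4 ratios overlapped between the sorted fractions, and each had the lowest exact p the design allows, 0.1. All but Mdm2 over Trp53 have Bcl2 as denominator, so they are not separate observations. No share over other gene pairs is given, here or for the comparisons with Dox islets below. Against Dox islets, macrophages did not overlap in Bax over Bcl2 (1.91), Mcl1 over Bcl2 (0.89) and Bcl2l1 over Bcl2 (0.85), nor did endothelial cells in Mdm2 over Trp53 (-1.02). With the GC trend removed, Bcl2l1 over Bcl2 differed by 0.12 between macrophages and Dox islets and the groups no longer separated (exact p = 0.8), Bax over Bcl2 differed by 1.17, and Mdm2 over Trp53 differed by -0.61 between endothelial cells and Dox islets. Mcl1 over Bcl2 differed by 0.59 between macrophages and Dox islets with quantile normalization. The remaining ratios overlapped, with exact p of 0.4 to 0.8.

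**Figure D3:**
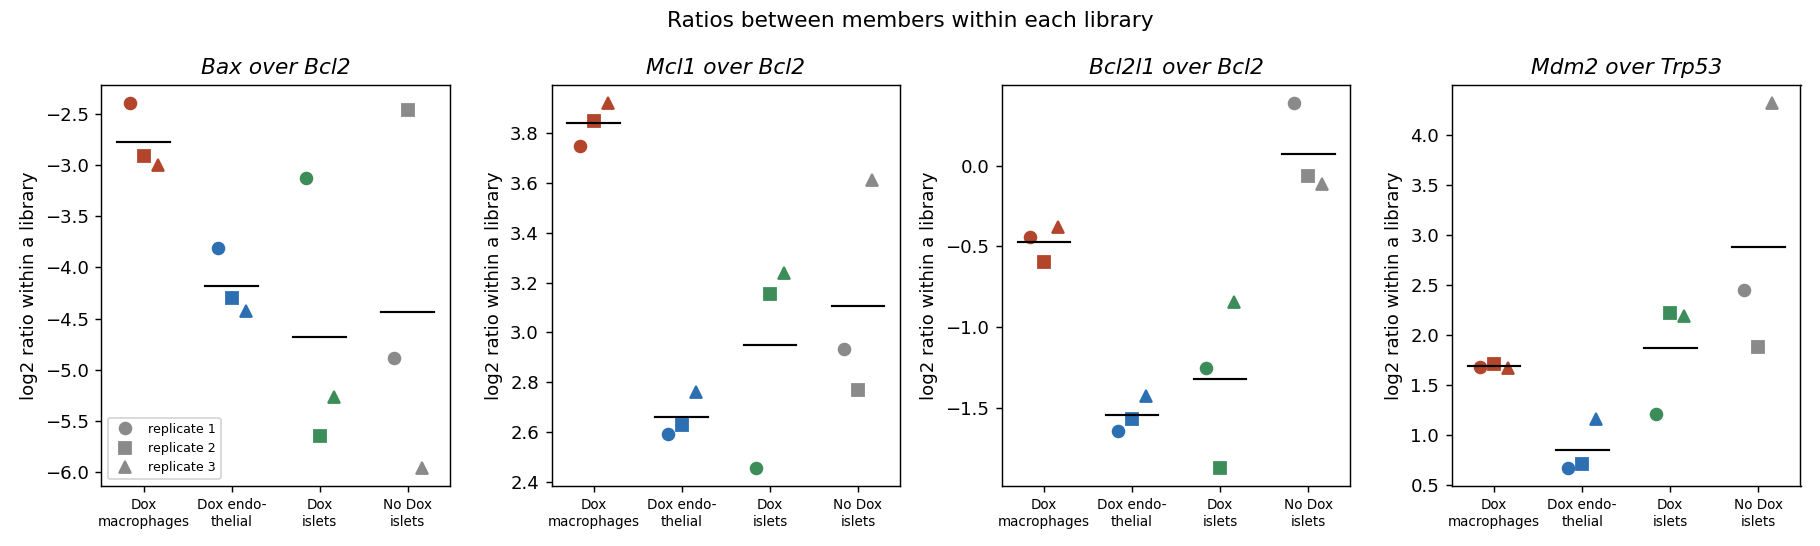
Log2 ratio between 2 members within each library (y axis, a separate scale for each ratio), one point per library with the group mean as a line. Macrophages lie above endothelial cells in all 4 ratios without overlap, and Dox islets lie below No Dox islets without overlap in Bcl2l1 over Bcl2 only. No share over other gene pairs is given, and all ratios but Mdm2 over Trp53 have Bcl2 as denominator.

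Other genes of the pathway were read from 4 lists. A list gene could enter a test through 1 group alone. Tnfrsf10b and Cdkn2a in macrophages and Ddb2, Bcl2a1a and Bcl2a1b in Dox islets reached the filter for low values in 0 of 3 libraries. The same held for Bnip3, Bcl2a1a, Bcl2a1b and Bcl2a1d in endothelial cells, and Birc5 reached the filter in 1 of 3 Dox islet libraries. Calls of these genes against these groups, and the list counts that hold them, come from a selected set. In the list of p53 target genes, macrophages against endothelial cells gave 6 higher and 6 lower of 15 tested, where 65.4% of all genes passed in either direction. The largest differences were lower values in macrophages of the death receptor genes Tnfrsf10b, at 41.4 ± 20.1 in macrophages and 1409 ± 28.6 in endothelial cells (log2 -5.16, adjusted p = 3.03e-06), and Fas (-3.22, adjusted p = 0.000140), and of the polo-like kinase gene Plk2 (-3.29, adjusted p = 4.53e-08). Against Dox islets, macrophages had 5 targets higher and 8 lower of 15, where 56.0% of all genes passed, with a list median of -1.13, against -0.12 over all genes tested. Cdkn1a, which encodes the cell cycle inhibitor p21, averaged 6985 ± 873 in macrophages and 1200.2 ± 1002 in Dox islets (2.85, adjusted p = 0.000872), the DNA repair gene Ddb2 was higher by 2.73 (adjusted p = 0.000528), and Tnfrsf10b was lower (-3.25, adjusted p = 0.000393). Endothelial cells had 5 targets higher and 3 lower of 13 than Dox islets, where 31.5% of all genes passed, led by Tnfrsf10b (1.90, adjusted p = 0.000439), Cdkn1a (1.79, adjusted p = 0.0288) and Plk2 (1.53, adjusted p = 0.000724). Of these, the call for Cdkn1a held under 8 of 15 alternatives and was lost without any 1 endothelial library or Dox islet replicate 2 or 3 (0.0573 to 0.113). Between Dox and No Dox islets 0 of 15 targets passed in limma, where 8.48% of all genes did. An unadjusted p under 0.05 was seen in 2 of them, and in 2435 of all 10214 genes. The target of highest signal, Btg2, an antiproliferative factor, averaged 7508 ± 3088 in Dox islets and 8661 ± 4064 in No Dox islets (SD, n = 3 each).

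Among p53 regulators, 4 of 12 tested were lower in macrophages than in endothelial cells and 0 higher, where 36.0% of all genes were lower and 29.4% higher, so the share that was lower is near that of all genes. These were led by Cdkn2a (log2 -2.99, adjusted p = 0.000425), whose ARF product inhibits MDM2, the phosphatase gene Ppm1d (-0.99, adjusted p = 0.00123) and the p53-binding protein gene Trp53bp1 (-0.79, adjusted p = 0.000536). Against Dox islets, the checkpoint kinase gene Chek2 was higher (0.97, adjusted p = 0.0424) and Ppm1d lower (-0.87, adjusted p = 0.0381) in macrophages, of 11 tested, where 56.0% of all genes passed, and these calls held under 8 and 5 of 15 alternatives. Both were lost without any 1 macrophage library or Dox islet replicate 2 or 3 (adjusted p 0.0634 to 0.143). Chek1 was the 1 regulator of 12 that passed between endothelial cells and Dox islets (0.97, adjusted p = 0.0293), where 31.5% of all genes passed, under 9 of 15 alternatives and not without endothelial replicate 1 or 2 or Dox islet replicate 2 or 3 (0.0666 to 0.140). In islets with Dox against those without, 0 of 10 passed in limma, where 8.48% of all genes did. An unadjusted p under 0.05 was seen in 1 of them, and in 2435 of all 10214 genes. Ep300, the acetyltransferase gene of highest signal in the list, averaged 8230.0 ± 1206 in Dox islets and 8758 ± 2694 in No Dox islets (SD, n = 3 each).

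In the rest of the BCL2 family, the pro-survival paralogs Bcl2a1a, Bcl2a1b and Bcl2a1d averaged 1992 ± 575, 2458 ± 563 and 2849.6 ± 787 in macrophages, and in endothelial cells they were at or next to the floor of 1. These paralogs are nearly identical in sequence, so the split between them is uncertain. Against Dox islets, Bcl2a1b was higher by 4.71 (adjusted p = 4.38e-06) and Bcl2a1a by 4.44 (adjusted p = 4.36e-05), while Bok, a BAX-like effector gene, was lower, with 9.19 ± 7.33 in macrophages and 396 ± 132 in Dox islets (-5.69, adjusted p = 0.000397). In all, 4 of 9 tested were higher and 3 lower in macrophages against endothelial cells, where 65.4% of all genes passed, and 3 of 10 higher and 4 lower against Dox islets, where 56.0% did, and both counts are not far from those shares. Of 7 tested between endothelial cells and Dox islets, Bnip3, a mitophagy receptor gene, alone passed (-2.11, adjusted p = 0.000980), where 31.5% of all genes did. In whole islets Bok rose with Dox, to 396 ± 132 in Dox islets, against 54.8 ± 22.5 in No Dox islets (SD, n = 3 each; log2 2.86, SE 0.52, adjusted p = 0.0159), as the 1 call of 6 tested, where 8.48% of all genes passed. Bok entered this test through the Dox islets, of which 3 of 3 libraries reached the filter for low values, against 0 of 3 No Dox libraries, and it entered the test of macrophages against Dox islets in the same way. It was kept under 12 of 17 alternatives, and its adjusted p was 0.0531, 0.0917 and 0.0535 without Dox replicate 1, 2 and 3.

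In the list of caspases, apoptosome and inhibitor genes, macrophages had 6 of 14 reported genes higher and 2 lower than endothelial cells, where 65.4% of all genes passed in either direction. Among them were Birc3 (2.78, adjusted p = 2.30e-07), which encodes the inhibitor of apoptosis protein cIAP2, Xiap (-1.10, adjusted p = 2.30e-05), which encodes a caspase inhibitor, and Casp9 (0.93, adjusted p = 0.0115), which encodes the initiator caspase of the apoptosome. The call for Casp9 was lost with no filter on low values (adjusted p = 0.0529). Against Dox islets 4 of 14 were higher and 1 lower in macrophages, where 56.0% of all genes passed, with Birc3 (3.08, adjusted p = 4.17e-06), the apoptosome scaffold gene Apaf1 (1.05, adjusted p = 0.00124) and Birc5, which encodes survivin (1.52, adjusted p = 0.0369). Endothelial cells had 4 of 14 higher than Dox islets and 0 lower, where 31.5% of all genes passed, including Apaf1 (0.95, adjusted p = 0.00281), the ubiquitin ligase gene Birc6 (0.64, adjusted p = 0.0157) and Birc5 (1.39, adjusted p = 0.0484). The call for Birc6 held under 9 of 15 alternatives and was lost without any 1 endothelial library or Dox islet replicate 3 (adjusted p 0.0570 to 0.0969). The calls for Birc5 held under 10 and 7 of 15 alternatives, the first lost without macrophage replicate 1 or 2 or Dox islet replicate 2 or 3 (0.0681 to 0.128), the second without any 1 endothelial library or Dox islet replicate 2 or 3 (0.0749 to 0.168). In whole islets Birc6, the reported gene of highest signal in the list, averaged 11683 ± 778 in Dox islets and 10728 ± 524 in No Dox islets (SD, n = 3 each; log2 0.12, adjusted p = 0.864). The comparisons share libraries with one another, so their results are not independent.

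**Figure D4:**
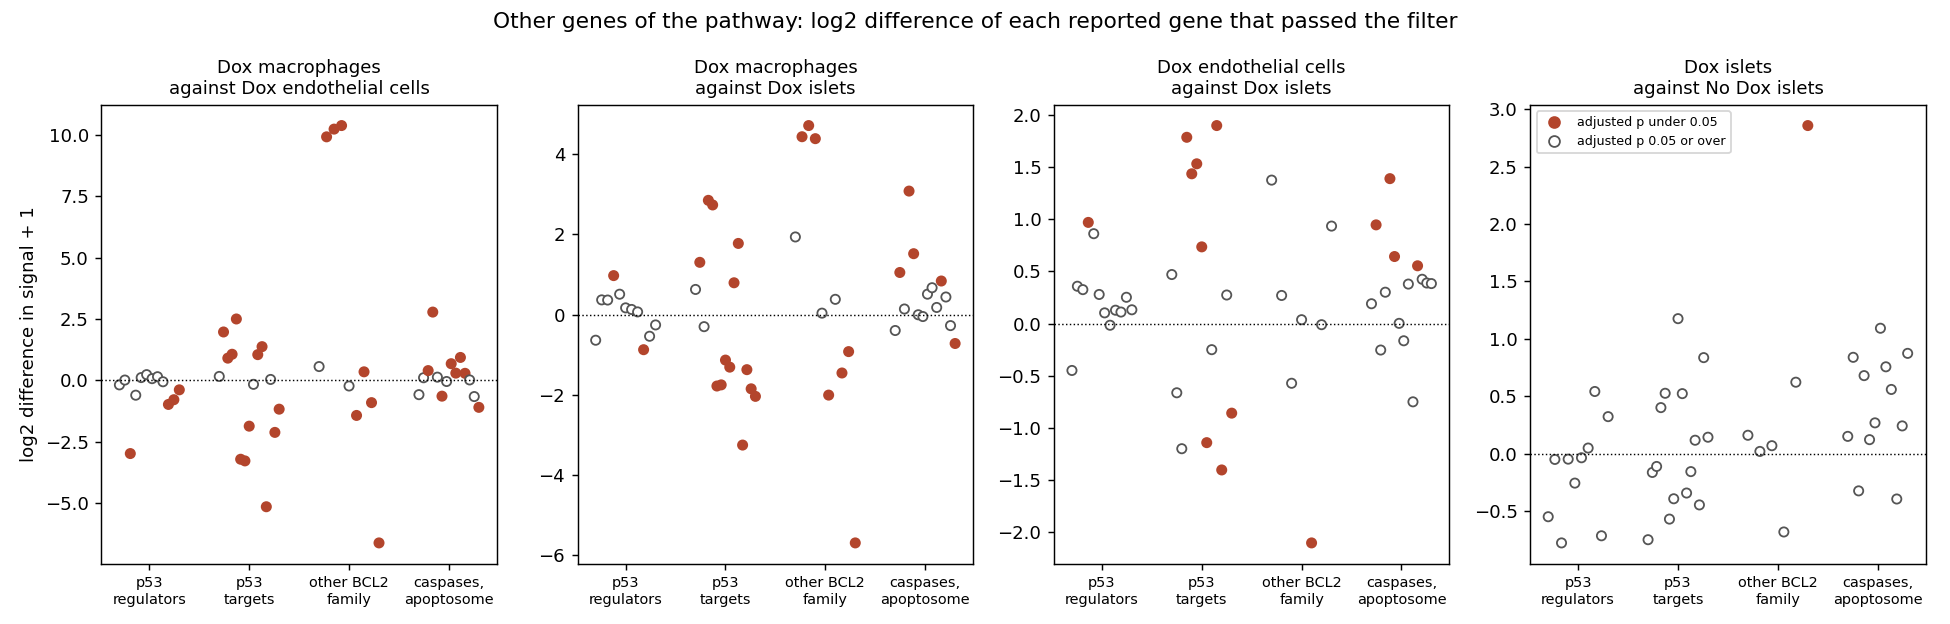
Log2 difference (y axis, signal + 1) of each tested and reported gene of the 4 pathway lists in the 4 comparisons, with filled points at an adjusted p under 0.05 in limma. Macrophages differ from both other Dox groups in many target and BCL2 family genes in both directions, and Bok (2.86) is a filled point between Dox and No Dox islets.

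Genes that followed single members most closely over the 12 libraries were picked from 8729 genes by Pearson's r of log2 signal. They were Rasa4 (0.98), Slc20a1 (0.97) and Tgfb1 (0.97) for Trp53, Phtf2, Sash1 and Gda (0.98 each) for Bcl2, and D16Ertd472e (0.98), Fam102b (0.98) and Rin2 (0.97) for Mcl1. These values mainly follow the order of the 4 groups and are a description of these libraries.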

How the data were processed

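RNA of whole islets and of islet cells sorted with antibodies was amplified with a NuGEN Ovation kit and sequenced, per the labels' protocols. The authors deposited 1 table of normalized signal for 22793 Ensembl genes, whose normalization, counting and strand setting were not given in the sources used here. Submitters' processing notes name TopHat2 2.0 and mm9. The deposited signal is linear with a floor of 1. Within a library, 99.9 to 100.0% of low values were multiples of 1 step (tolerance 0.1 step). Of these values, 41.69 to 63.84% were also multiples of 50 steps. The step ran from 0.0122 in Dox islet replicate 1 to 0.0605 in macrophage replicate 3. What 1 read is worth on this scale was not established, so no count model was used. Read depth was not established either, and it may differ between libraries. Symbols turned into dates (25) were restored, and of 76 symbols with several rows the one with the highest mean was kept, leaving 22711 genes.

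Each comparison was fitted to its 6 libraries with limma 3.58.1 in R 4.3.3 on log2(signal + 1), with a variance trend and Benjamini-Hochberg adjustment over all genes tested (threshold 0.05). The added 1 understates differences of low genes. Genes were tested where at least 3 of 6 libraries reached 183, the 40th percentile of values above the floor. A lower filter of 15.6, the 40th percentile of all values, was added after values were seen and served for members under the first. A call counts as kept under an alternative when it has the same sign and an adjusted p under 0.05. The fits were tested on simulated data. Members, gene lists and tests were chosen with earlier results of these data known. Besides all members, the text names up to 3 called genes per list and comparison with the largest difference, or the gene of highest signal where 0 passed. In the caspase list 2 genes are not reported here and are left out of its counts and plot. The promoter windows came from RefSeq (GRCm38.p6), and exon lengths from GENCODE M1, whose coordinates matched the table's for all 10 members.

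Same-numbered macrophage and endothelial libraries deviated together from their group means (correlation over genes 0.27, 0.51 and 0.45), so their numbers may mark pairs, though no label states it. The main fits, whose values are given above, held no replicate block and are unpaired. Adding a replicate block as an alternative changed no member's call in that comparison.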

Additional observations from a re-analysis of the deposited data

How the results depend on the processing

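In Dox against No Dox islets it was 0, and 2 with all 4 groups fitted together and with the GC trend removed, and 0 to 1 when single libraries were left out. Between macrophages and endothelial cells it was 8, and 3 with all 4 groups fitted together, and 6 to 8 with libraries left out. Between macrophages and Dox islets it was 7, and 2 to 7 with libraries left out. Between endothelial cells and Dox islets it was 1, and 0 with no filter, 0 with all 4 groups together, 3 with the GC trend removed and 0 to 1 with libraries left out. Over all genes, the 866 islet calls were 97 with no filter (80 of them shared), 1510 with all 4 groups together, 1613 with the GC trend removed, 1457 with the replicate block and GC trend removed, 371 without the 2 islet libraries whose GC trend stood apart, 573 with the identifier run as a covariate (added after seeing the data) and 5 to 736 with libraries left out. They were 5 without Dox islet replicate 2, 159 without Dox islet replicate 3 and 577 without No Dox replicate 1. The 3206 calls between endothelial cells and Dox islets were 6065 with the GC trend removed and 2105 to 6168 with libraries left out (2105 and 2133 without endothelial replicate 1 and 2, 6168 without Dox islet replicate 1). The other 2 comparisons stayed within 1.5 times. The cause of these shifts was not tested.

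The replicate block moved the islet count of all genes to 627 and left 0 members called. It gave 8 members between macrophages and Dox islets, where Mcl1 passed (adjusted p = 0.0249), 1 between endothelial cells and Dox islets and 8 between the sorted fractions. Outside the sorted fractions the correlations ran from -0.66 to 0.33, which neither shows nor excludes pairing there. The value of 0.33, for replicate 1 of endothelial cells and Dox islets, exceeded the 0.27 for replicate 1 of the sorted fractions. The part of each library's GC trend in these correlations was not tested.

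Of the 610 member values under alternatives, 517 kept direction and side of the threshold, 48 lost and 20 gained a call, and 25 changed sign, all of genes that had not passed. Of 533 values of other named genes, 470 were kept, 55 lost their call and 8 changed sign. Signs changed as follows, on the log2 scale. With single libraries left out, the islet differences ran from -0.29 to 0.18 for Mdm2, -0.080 to 1.69 for Bax, -0.057 to 2.11 for Bbc3, -0.61 to 0.053 for Bcl2l1, -0.33 to 0.13 for Ep300 and -0.62 to 0.18 for Btg2. Bcl2 between macrophages and Dox islets ran from -0.19 to 0.025, and between endothelial cells and Dox islets Mdm2 ran from -0.13 to 0.074, Bcl2l1 from -0.099 to 0.34, Bcl2l11 from -0.29 to 0.14 and Mcl1 from -0.35 to 0.21. Removal of the GC trend gave Bcl2 0.55 between macrophages and Dox islets (adjusted p = 0.0121) and, between endothelial cells and Dox islets, Mdm2 0.53 (adjusted p = 0.00823), Pmaip1 0.18 and Bcl2l11 0.40. Between endothelial cells and Dox islets, quantile normalization gave Bbc3 1.03, Pmaip1 0.014 and Mcl1 -0.21, and the identifier run gave Mdm2 0.11, Bax -0.43 and Bcl2l11 0.37. The islet difference of Birc6 was -0.11 with quantile normalization and -0.015 with the GC trend removed, with or without the replicate block. Bcl2 between macrophages and Dox islets was 0.039 with median ratio size factors and 0.025 with the identifier run. With libraries left out, the islet ratio of Bax over Bcl2 ran from -1.01 to 0.74, that of Mcl1 over Bcl2 from -0.32 to 0.10, and that of Bcl2l1 over Bcl2 between endothelial cells and Dox islets from -0.50 to 0.014. Mdm2 over Trp53 between macrophages and Dox islets was 0.42 with the GC trend removed. With the GC trend removed, between endothelial cells and Dox islets Apaf1 was 1.53, Birc6 1.21, Chek1 1.74 and Bnip3 -1.36, and between macrophages and Dox islets Apaf1 was 1.67, Chek2 1.59 and Ppm1d -0.45. With the identifier run, Cdkn1a was 0.64, Birc5 0.80 and Trp53 0.62 between endothelial cells and Dox islets. Read depth was not established, so no limit from counting is given for the low genes Bax, Bid and Bbc3.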
